A study of Homo sapiens with 14 samples.

Results

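The snoRNA host transcripts are 10 noncoding genes of the count file, GAS5, SNHG1, SNHG5, SNHG6, SNHG8, SNHG12, SNHG15, SNHG16, ZFAS1 and EPB41L4A-AS1, chosen by name from 58434 gene symbols and followed over all 14 libraries. All 10 had counts in every library and passed the filter on low counts in each of the 10 fits. The cells were MDA-MB-231, a human triple-negative breast cancer line, with an inducible hairpin directed at DAP5 in MB-231-shDAP5 and an inducible non-silencing hairpin in MB-231-shNSi, and both lines received 1 µg/ml doxycycline for 6 days, so the control cells carry the vector and the drug as well. DAP5, encoded by EIF4G2, is a relative of the scaffold initiation factor eIF4GI that lacks the binding site for the cap-binding protein eIF4E. Each line was sampled in 2 cultures as total mRNA, light (poorly translated) polysomes and heavy (well-translated) polysomes, and MB-231-shNSi also as a moderate polysome pool. The study describes its 2 sets of libraries as independent experiments, the labels give no clone or passage, and each hairpin is represented by 1 stable line.

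A snoRNA host gene carries small nucleolar RNAs in its introns. The snoRNAs, released during splicing, guide chemical modification of ribosomal RNA, while the spliced exons of a noncoding host leave the nucleus as a capped, polyadenylated transcript with no long reading frame. Many of these exon transcripts are bound by ribosomes on short frames near their start and are degraded by nonsense-mediated decay, and several begin with a cytosine and a run of pyrimidines, the terminal oligopyrimidine (TOP) start known from ribosomal protein mRNAs. On a sucrose gradient a transcript sediments by the number of ribosomes it carries, which is limited by the length of the frame that is read.

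The first bases of the host transcripts are shown because the start decides whether a transcript is of the TOP kind. They were read from GENCODE v29 transcripts, 5′ to 3′, with the leading cytosine and its unbroken run of pyrimidines in capitals wherever it reached 5 bases. For each gene the first listed transcript with such a start is given, taken from those without a retained intron where any had it, or, for SNHG15 and EPB41L4A-AS1, which have none, the first spliced transcript. The SNHG1 transcript shown has a retained intron and is the only 1 of the 25 annotated for SNHG1 with such a start. SNHG6 also has such a start and its sequence is not shown.
GAS5: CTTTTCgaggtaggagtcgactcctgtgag
SNHG1: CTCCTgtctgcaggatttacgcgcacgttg
SNHG5: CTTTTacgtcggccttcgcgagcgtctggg
SNHG8: CTTTCacattcgggaagcgtcgggattagg
SNHG12: CCTTCCTgcgcgccgttccccgctagtcgc
SNHG16: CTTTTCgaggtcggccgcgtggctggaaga
ZFAS1: CTTTCgcgtctgcggtgcccggagtgtggt
SNHG15: ccgccatcctgggccccacgtgttgcctga
EPB41L4A-AS1: tgtcgggtcccaaaatacgtggtctaaagt
Of the 136 annotated transcripts of the 10 genes, 23 (16.9%) had this start, against 4979 of 206694 transcripts of all genes (2.41%). At least 1 such transcript was annotated for 8 of the 10 genes, for 6.75% of all genes and for 66 of 82 ribosomal protein genes. Such a count of genes grows with the transcripts annotated per gene, which were 136 over the 10 genes and 206694 over all 57133 genes. At the start sites of the RefSeq promoter table, with 1 site per gene on GRCh38.p14, the same pattern stood at 3 of the 8 members listed (SNHG5, SNHG12 and ZFAS1) and at 4.07% of 35116 starts. An annotated end is not a mapped cap site, and a letter match is a description only.

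Most of the reading frames were short. Over the spliced transcripts of each gene, the first frame that opened with ATG had a median of 14 (SNHG8) to 44.5 codons (SNHG1), and the longest frame a median of 29 (SNHG6) to 71 codons (EPB41L4A-AS1). The longest were 117 codons in ZFAS1, where it is also the first frame of some transcripts, and 120 codons in EPB41L4A-AS1. The longest annotated coding sequence of protein-coding genes had a median of 428 codons. The first frames of the ZFAS1 and SNHG8 transcripts above are shown as examples of such short frames, with their start and stop codons in capitals.
ZFAS1 first frame: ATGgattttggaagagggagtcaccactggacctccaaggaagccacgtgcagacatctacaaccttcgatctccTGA
SNHG8 first frame: ATGtggccatctTGA
The frame holds 25 codons in this ZFAS1 transcript, where the gene's median was 40.5, and 4 codons in this SNHG8 transcript, where other transcripts reach 52.

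The genes are scattered over the genome. On GRCh38 (GENCODE v29), GAS5, first described as a transcript that accumulates in growth arrest, lies at chr1:173863900-173868882 on the minus strand. SNHG1 lies at chr11:62851988-62855914 (minus), SNHG5, the host of the U50 snoRNAs, at chr6:85660950-85678748 (minus) and SNHG8 at chr4:118278709-118279823 (plus). SNHG12 lies at chr1:28578538-28583132 (minus), SNHG15 at chr7:44983023-44986961 (minus) and SNHG16 at chr17:76557766-76565348 (plus), while SNHG6 is on chromosome 8. ZFAS1, which starts beside ZNFX1 on the other strand, lies at chr20:49278178-49295738 (plus), and EPB41L4A-AS1 at chr5:112160526-112164276 (plus). The reads were aligned to hg19, and the count file gives symbols only. Exons of 6 members overlap a gene on the opposite strand: EPB41L4A-AS1 shares 1659 of its 3344 exonic bases with EPB41L4A, SNHG16 shares 1639 of 5362 with AC015802.6, ZFAS1 shares 249 of 2243 with ZNFX1, SNHG6 shares 365 of 1247 with MCMDC2, and GAS5 and SNHG12 share 42 and 8 bases with GAS5-AS1 and TRNAU1AP. The strand setting of the counting is not described beyond the term rev in the name of the count table, and if strand was not used, reads of these stretches cannot be told apart from those of the partner.

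Total counts per library were 25899838 to 30795910. EIF4G2 stood at 1391 and 1358 CPM (counts per 1000000 counts of the TMM-scaled library size) in the shNSi total mRNA of replicates 1 and 2 and at 525 and 730.0 CPM in shDAP5, a log2 change of -1.11 (SE 0.18, edgeR adjusted p = 0.0172). In the polysomes it stood at 1558 and 1561 against 565 and 680 CPM (light) and at 1495 and 1393 against 709 and 697 CPM (heavy), where the log2 changes of -1.33 (adjusted p = 0.430) and -0.86 (adjusted p = 0.0691) did not pass the edgeR test, and at 2436 and 1774 CPM in the shNSi moderate pool. All 6 markers of the mesenchymal line (VIM, CD44, EGFR, CAV1, AXL and MSN) were at 63.0 CPM or more in the 4 total libraries, and of 7 luminal markers PGR was at 0 and ESR1 and CDH1 were below 0.4 CPM, while KRT8, at 427 to 544 CPM, ERBB2, at 41.5 to 67.4 CPM, GATA3, at 10.4 CPM or more, and EPCAM, at 3.68 to 4.93 CPM, were higher. The 2 shDAP5 light libraries are titled light but carry in their description the code that marks the moderate pool in shNSi, and the shDAP5 total libraries are titled as total polysome. They were used as titled, and values against the shNSi moderate pool are given where they change a call.

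In total mRNA the host transcripts spanned a more than 10-fold range of levels, with SNHG5, SNHG8, GAS5 and ZFAS1 at the top. Per kilobase of annotated exon, the shNSi total libraries held 108 CPM of SNHG8 (SD 1.90, n = 2), 104 of SNHG5 (SD 0.892), 88.9 of GAS5 (SD 2.62), 87.3 of ZFAS1 (SD 12.9), 63.7 of SNHG6 (SD 15.8), 59.3 of SNHG1 (SD 6.07), 28.3 of SNHG16 (SD 10.7), 15.2 of SNHG15 (SD 3.51), 9.30 of SNHG12 (SD 2.65) and 9.13 of EPB41L4A-AS1 (SD 2.50). The ranges of the 2 cultures overlapped between GAS5 and ZFAS1, between SNHG6 and SNHG1 and between SNHG12 and EPB41L4A-AS1. The exon length is the union over annotated isoforms, so genes with long rare isoforms are placed too low. The snoRNAs themselves had few counts. Of 23 snoRNA entries (22 names) annotated within 9 of the hosts, 13 have a row, 8 of those were at 0 throughout and the highest single count was 9. The host without an entry was GAS5, so snoRNAs within it were not looked at. An annotated exon of the host overlaps 18 of the 23 entries and 7 of the 8 at 0, so a count of 0 there does not show that reads were absent.

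**Figure D1:**
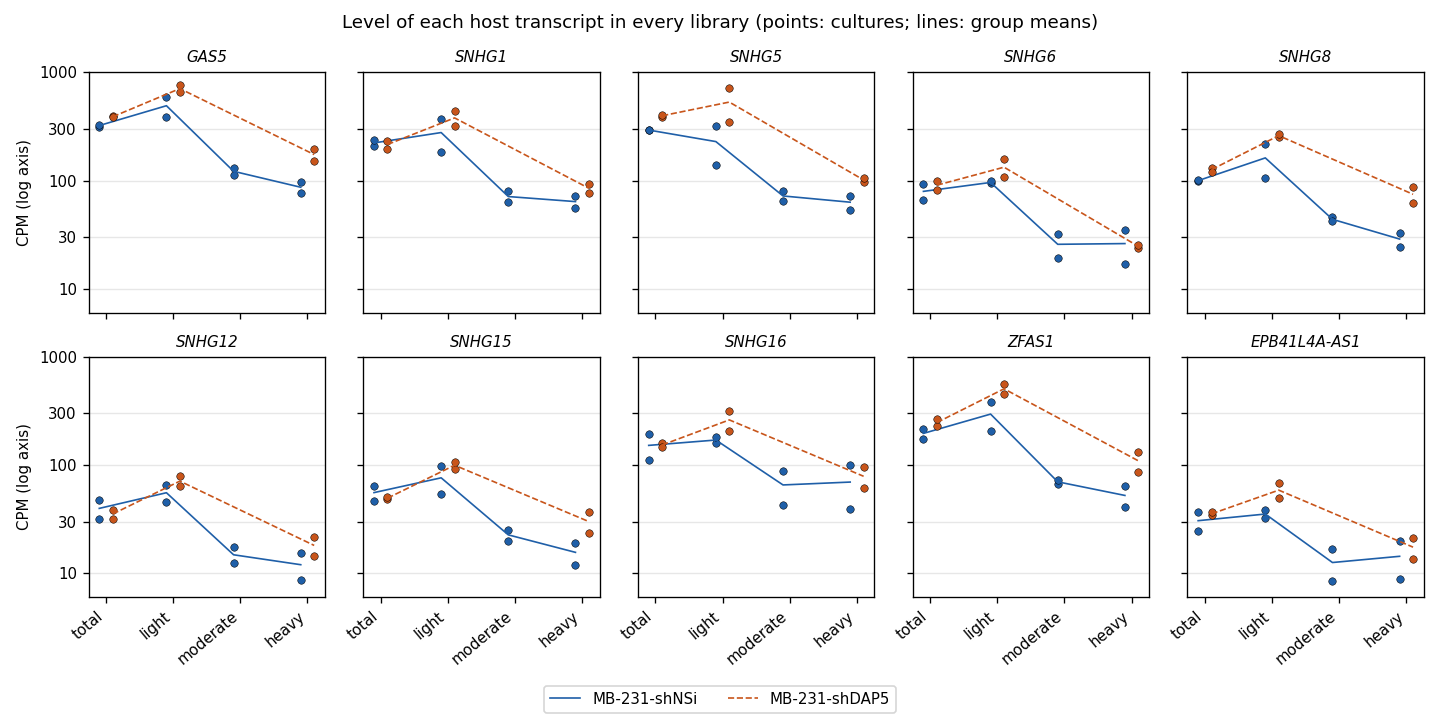
Level of each snoRNA host transcript in CPM (log axis) in total mRNA and in the light, moderate and heavy polysome pools. Points are cultures (2 per group), lines join group means, and no MB-231-shDAP5 library is titled as moderate. In both lines every host lies lower in the heavy than in the light pool.

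In control cells all 10 host transcripts were lower in heavy than in light polysomes, by 2.86-fold (EPB41L4A-AS1) to 6.05-fold (ZFAS1). Together they took 0.268% and 0.148% of the counts of the light pool of replicates 1 and 2, 0.0514% and 0.0490% of the moderate pool and 0.0258% and 0.0370% of the heavy pool, beside 0.147% and 0.164% of total mRNA. ZFAS1, host of the SNORD12 snoRNAs, stood at 384 and 206 CPM in the light pool, 66.5 and 73.1 CPM in the moderate pool and 40.5 and 64.0 CPM in the heavy pool. GAS5 stood at 596 and 388 CPM (light), 130.0 and 114 CPM (moderate) and 77.4 and 96.1 CPM (heavy). SNHG8, host of SNORA24, stood at 219 and 105 CPM, 45.8 and 41.9 CPM and 24.5 and 33.1 CPM. For these genes both light libraries lay above all moderate and heavy libraries, and light replicate 1 lay above light replicate 2. The least uneven members were SNHG16, host of the SNORD1 snoRNAs, with 159.5 and 180.5 CPM in the light and 39.4 and 99.5 CPM in the heavy pool, and EPB41L4A-AS1, host of SNORA13, with 37.9 and 32.4 against 8.81 and 19.8 CPM.

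The fitted heavy-over-light log2 ratio was -2.60 for ZFAS1 (SE 0.37, edgeR adjusted p = 3.57e-05), -2.57 for GAS5 (SE 0.34, adjusted p = 1.92e-05), -2.53 for SNHG8 (SE 0.34) and -1.52 for EPB41L4A-AS1 (SE 0.31, adjusted p = 0.000665). The count of members called lower was 10 of 10, where 31.9% of all genes tested were called lower. The median over the members was -2.26, and -0.06 over all genes. Each call remained under every alternative run, with fitted ratios between -3.37 and -0.81 on the log2 scale.

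Most of the step lay between the light and the moderate pool. The log2 ratio of the moderate to the light pool (CPM plus 0.5, mean of 2 cultures, a description with no test) was -2.01 (ZFAS1) to -1.46 (SNHG16), with a median of -1.82, and was below 0 in both cultures for all 10. From the moderate to the heavy pool the members moved by -0.61 (SNHG8) to 0.15 (EPB41L4A-AS1), with a median of -0.26, and 6 of 10 were lower in both cultures. Ribosomal protein mRNAs, the best known TOP mRNAs, had the opposite order, with medians over 83 genes of -0.61 for the first step and -1.13 for the second. The coding snoRNA hosts, such as HSPA8 (a constitutive chaperone), had medians over 17 genes of 0.51 and 0.91, with 3 genes below 0 in the first step and 5 in the second, while 15 other noncoding hosts such as DANCR had medians of -1.26 and -0.32.

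**Figure D2:**
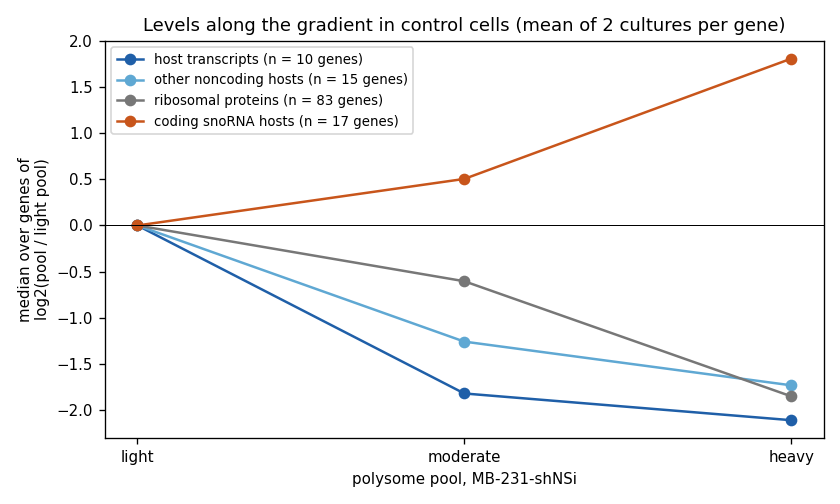
Median over the genes of each list of the log2 ratio of a polysome pool to the light pool in MB-231-shNSi, each gene as the mean of 2 cultures. The host transcripts and the other noncoding hosts differ most between light and moderate, ribosomal protein mRNAs most between moderate and heavy, and the median of the coding snoRNA hosts is higher toward heavy.

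Against total mRNA, the same transcripts were depleted from the heavy pool of control cells but no enrichment in the light pool passed the test. Heavy over total, the log2 ratio ranged from -2.30 (SNHG5, SE 0.37) to -1.24 (EPB41L4A-AS1, SE 0.31), with a median of -1.88, and 10 of 10 members were called lower against 14.8% of all genes (edgeR, adjusted p from 0.0046 to 0.0091). Light over total, 9 of 10 members had a positive ratio, up to 0.66 for SNHG8 (SE 0.32), and SNHG5 stood at -0.38 (SE 0.36). The CPM ratio was above 1 in both cultures for 3 members (GAS5, SNHG6 and SNHG8), and for the other 7 it was above 1 in replicate 1 and below 1 in replicate 2. None was called by edgeR, DESeq2 or limma, where edgeR called 2.84% of all genes higher and 11.7% lower (14.5% in either direction). At an unadjusted p under 0.05 in edgeR 0 members passed, where 5195 of 15514 genes did. SNHG5 was measured at 295 and 291 CPM in total mRNA and at 318 and 141 CPM in the light pool, so its 2 light libraries lie on either side of the total ones. Without a term for each culture no gene passed in either comparison (adjusted p of the members 0.064 to 0.142 for heavy over total), and with shNSi replicate 2 left out 4 members were called higher in light over total, against 4.5% of all genes.

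In MB-231-shDAP5 the host transcripts were again all lower in heavy than in light polysomes. The fold was 3.39 (SNHG16) to 5.47 (SNHG6), the median log2 ratio was -2.04, and 10 of 10 were called lower, against 24.8% of all genes (edgeR, adjusted p from 0.000114 to 0.000232). SNHG6, host of SNORD87, was measured at 108 and 158 CPM in the light and at 23.8 and 25.5 CPM in the heavy pool, a log2 ratio of -2.45 (SE 0.23). SNHG16 was measured at 204 and 318 CPM and at 61.4 and 95.8 CPM, a log2 ratio of -1.76 (SE 0.23). The ribosomal protein list had a median of -0.70 in these cells, beside -1.95 in control cells, with 39 of 83 called lower where 66 had been in shNSi and 9 called higher where 3 had been. Over all genes 24.8% were called lower where 31.9% had been in shNSi, and 25.9% higher where 33.8% had been. All 15 tested members of the other noncoding hosts were called lower in both lines, with medians of -2.07 in shNSi and -1.56 in shDAP5.

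**Figure D3:**
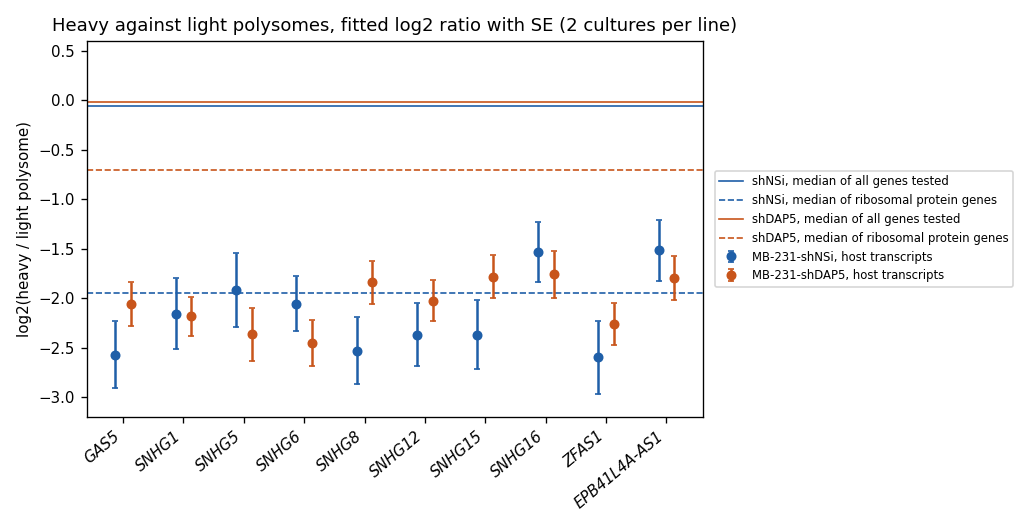
Fitted log2 ratio of heavy to light polysomes for each host transcript, with its standard error, in MB-231-shNSi and MB-231-shDAP5 (2 cultures each). All 20 values lie between -2.60 and -1.52, while the median of ribosomal protein genes (dashed) is -1.95 in shNSi and -0.70 in shDAP5 and that of all genes tested (solid) is near 0.

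The ratio of the host transcripts was close to that of mRNAs with very short coding sequences in control cells. Among coding genes with fewer than 100 codons the median heavy-over-light log2 ratio in shNSi was -2.22 (189 genes), and 95.2% were called lower. The median was -1.65 from 100 to under 200 codons, -0.45 from 200 to under 400, 0.65 from 400 to under 800 and 1.33 at 800 codons or more. In shDAP5 the same classes had medians of -1.51, -0.86, 0.06, 0.37 and 0.29, so the shortest class lay above the members' median of -2.04. These are descriptions across genes, which are not replicates, and the change of a class between the lines was not tested.

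**Figure D4:**
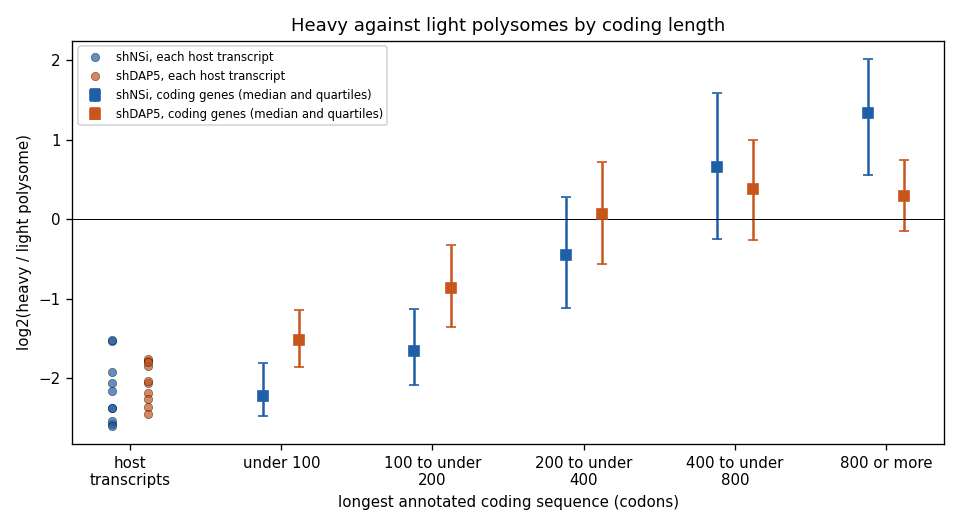
Log2 ratio of heavy to light polysomes for each of the 10 host transcripts (circles) and for protein-coding genes by length of the longest annotated coding sequence (squares, median, with quartiles as bars). The class under 100 codons has a median of -2.22 in shNSi, where 5 of the 10 hosts lie within its quartiles, 3 below and 2 above, and of -1.51 in shDAP5, where 4 lie within its quartiles and 6 below.

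After DAP5 silencing no host transcript passed the test in total mRNA. The log2 change (shDAP5 against shNSi) ranged from -0.15 (SNHG12, SE 0.23) to 0.47 (SNHG5, SE 0.17, edgeR adjusted p = 0.248), with a median of 0.23, and 0 of 10 were called, where 0.354% of all genes were. In bulk libraries such as these, a change in the number of cells that hold a transcript and a change in its amount per cell cannot be told apart. DESeq2 and limma called 0 as well. At an unadjusted p under 0.05 in edgeR 1 of the 10 members, SNHG5, passed, as did 1799 of 14992 genes. SNHG5 was measured at 391 and 404 CPM in shDAP5 total mRNA, both above the control values. For 4 members (GAS5, SNHG5, SNHG8 and ZFAS1) both shDAP5 libraries lay above both shNSi libraries, as they did for 20% of all genes.

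In light polysomes all 10 host transcripts had a higher mean in shDAP5, and none passed the test. The log2 change was 0.35 (SNHG12, SE 0.29) to 1.21 (SNHG5, SE 0.47, edgeR adjusted p = 0.555), with a median of 0.57 beside -0.01 over all genes, and 0% of all genes were called (1330 of 15529, and 2 of the members, at an unadjusted p under 0.05). DESeq2 called 105 genes and limma 0, neither with a member among them. SNHG5 was measured at 350.4 and 713 CPM in shDAP5, GAS5 at 659 and 758 CPM and ZFAS1 at 455 and 557 CPM. For 7 members both shDAP5 libraries lay above both shNSi libraries, as for 21.6% of all genes. With shNSi replicate 1 left out, 8 members were called higher against 12.6% of all genes, and with the shNSi moderate pool as the control all 10 were, with a median of 2.40, again against 12.6%. Light translation efficiency, the light-over-total ratio compared between the lines, had a positive change for all 10 members, with a median of 0.51, and none was called, where again 0% of all genes were (833 of 15967, and 0 of the members, at an unadjusted p under 0.05, with 0 genes by DESeq2 and limma). Without shNSi replicate 1, 9 members were called higher against 4.82% of all genes, and with the shNSi moderate pool as the control all 10 were, against 13.8%.

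In heavy polysomes 5 of the 10 host transcripts rose in shDAP5, SNHG8 2.96-fold, ZFAS1 2.39-fold, GAS5 2.29-fold, SNHG15 2.20-fold and SNHG5 1.83-fold, where 14.2% of all genes were called higher. SNHG8 was measured at 24.5 and 33.1 CPM in the 2 shNSi heavy libraries and at 62.4 and 86.9 CPM in shDAP5, a log2 change of 1.57 (SE 0.34, edgeR adjusted p = 0.000122). ZFAS1 was measured at 40.5 and 64.0 against 86.7 and 132 CPM, a log2 change of 1.26 (SE 0.33, adjusted p = 0.00183). GAS5 was measured at 77.4 and 96.1 against 151 and 197 CPM, a log2 change of 1.19 (SE 0.34, adjusted p = 0.00352). For each of them the groups did not overlap. SNHG15, host of SNORA9, was measured at 11.9 and 19.2 against 23.3 and 36.6 CPM (log2 change 1.14, SE 0.34, adjusted p = 0.00649), and SNHG5 at 53.7 and 72.5 against 97.4 and 105 CPM (log2 change 0.87, SE 0.33, adjusted p = 0.0310).

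The 5 members that did not pass had log2 changes of 0.11 (SNHG6, SE 0.34) to 0.79 (SNHG12, SE 0.35, edgeR adjusted p = 0.0723). SNHG6 was measured at 17.1 and 35.2 against 23.8 and 25.5 CPM. SNHG6, SNHG12, SNHG16 and EPB41L4A-AS1 overlapped between the lines, and SNHG1, at 55.5 and 72.3 against 76.9 and 92.9 CPM, did not. Both shDAP5 libraries lay above both shNSi libraries for 6 members, as for 29% of all genes. The median over the members was 0.83, beside 0.09 over all genes, 1.29 over 83 ribosomal protein genes, of which 69 were called higher and 0 lower, and 1.20 over 15 other noncoding hosts, of which 8 were called higher and 0 lower. The shNSi heavy libraries were those with the lowest TMM factors (0.702 and 0.763, against 0.899 to 1.16 in the other libraries), and their part in the result was not tested. Of all calls 2024 of 4414 were higher, and 2504 of 3643 without TMM, where 5 members were called higher against 17.5% of all genes. No member was called without shDAP5 replicate 2 (2 genes called in all), with the shNSi moderate pool as the control or with shNSi heavy and moderate summed, and 1 was called higher without shNSi replicate 1, against 7.07% of all genes. Of 13 alternatives the call was lost under 9 for SNHG5, 5 for SNHG15, 4 each for GAS5 and ZFAS1 and 3 for SNHG8.

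**Figure D5:**
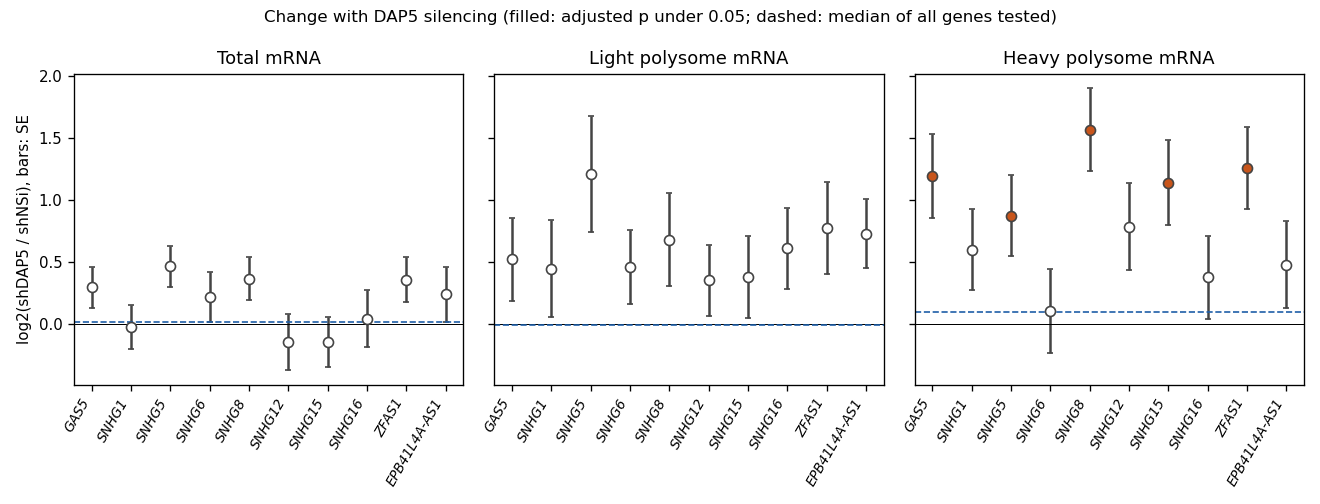
Log2 change of each host transcript, shDAP5 against shNSi, in total mRNA, light polysomes and heavy polysomes, with its standard error (2 cultures per group). Filled points passed an adjusted p of 0.05 (5 members, in heavy polysomes only among the panels shown), and dashed lines mark the median of all genes tested, 0.01, -0.01 and 0.09.

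Relative to total mRNA, 2 host transcripts rose in heavy polysomes. Heavy translation efficiency, the heavy-over-total ratio compared between the lines, was higher in shDAP5 for SNHG15 by 1.25 on the log2 scale (SE 0.35, edgeR adjusted p = 0.0174) and for SNHG8 by 1.18 (SE 0.34, adjusted p = 0.0209), and 4.85% of all genes were called higher. The other 8 ranged from -0.06 (SNHG6) to 0.91 (SNHG12, adjusted p = 0.0709), and the median was 0.74 beside 0.09 over all genes. For ribosomal proteins 48 of 83 were called higher, with a median of 1.13. Each of the 2 member calls was kept under 5 of 15 alternatives and lost under 10, with adjusted p up to 1 when the shNSi moderate pool was summed with heavy. No member was called without shDAP5 replicate 2, shNSi replicate 1 or shNSi replicate 2, and 5 were called higher without shDAP5 replicate 1, against 13% of all genes.

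The distribution of the host transcripts between heavy and light polysomes did not pass a test of change with DAP5 silencing for any member. The change in the heavy-over-light log2 ratio ran from -0.45 (SNHG5, SE 0.54) to 0.69 (SNHG8, SE 0.49, edgeR adjusted p = 0.411). It was above 0 for 5 members and below 0 for 5, with a median of 0.16. By edgeR 0 of 10 were called, against 6.75% of all genes. At an unadjusted p under 0.05 in edgeR 0 members passed, where 3985 of 15878 genes did. DESeq2 and limma called 0 members, where DESeq2 called 3.33% of all genes higher and 9.05% lower and limma called 0 genes. The standard errors were 0.43 to 0.54 with 2 cultures per line. The ribosomal protein list had a median of 1.22 with 1 of 83 called, and the 15 other noncoding hosts a median of 0.46 with 0 called. With the shNSi moderate pool in place of light, all 10 members were called lower in shDAP5, with a median of -1.68, where 12% of all genes were called lower and 11.9% higher. Without shNSi replicate 1 the median was -0.57 and 1 member was called lower (10.4% of all genes), and without shNSi replicate 2 it was 0.86 and 1 member was called higher (1.96% of all genes).

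Across the 14 libraries the host transcripts varied together. Pearson's r of log2 CPM between pairs of members was 0.85 (SNHG8 with SNHG16) to 0.99, with a median of 0.94 over 45 pairs, where the points share libraries, depth and the 4 fraction classes. SNHG16 (0.93) and SNHG5 (0.94) followed the mean of the other members least closely and ZFAS1 (0.99) most. Among 9379 genes with a mean of at least 10 CPM, the profiles most like the members' mean were those of COX20, an assembly factor of cytochrome c oxidase (r = 0.995), EMC6, a subunit of the endoplasmic reticulum membrane protein complex (0.989), the snoRNA hosts LRRC75A-AS1 (0.989) and C6orf48 (0.989), and RPS27, a protein of the small ribosomal subunit (0.988).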

How the data were processed

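The 14 libraries were single-read RNA sequencing of 2 MB-231-shNSi and 2 MB-231-shDAP5 cultures. The authors deposited whole-number read counts per gene symbol, without normalization. The submitters' processing notes name STAR 2.6.0a, limma and hg19, and the count table is named for featureCounts with the term rev, which may mark reverse-stranded counting. The annotation and strand setting are not otherwise given in the sources used here. Groups followed the sample titles.

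Quasi-likelihood models of edgeR 4.0.16 in R 4.3.3 (filterByExpr, TMM) were fitted over all genes of the libraries compared, with 4 libraries for each shRNA comparison. Translation efficiency and the change of the heavy-over-light ratio were tested as an interaction of 8 libraries with a term for each culture, and pools within a line with a term for each culture. Benjamini-Hochberg adjusted p-values under 0.05 over all genes of a fit were called. CPM used library sizes scaled by TMM over all 14 libraries, and ratios of CPM used a pseudocount of 0.5. An exact permutation test of 2 against 2 cannot go below p = 0.333 and was not used. Members had 186 to 23360 counts per library, and 2 cultures per group limit the precision. In the shRNA comparisons the p-values measure the spread between these cultures. In the fits with a term for each culture they measure the spread that remains after that term.

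Positions and transcripts came from GENCODE v29 (GRCh38), where 37621 symbols and all 10 members matched. Ribosomal protein genes, other noncoding hosts (17 listed), coding hosts, nonsense-mediated decay factors and nuclear noncoding RNAs served as comparison lists. The members and lists were chosen with earlier results of these data known. The genes named are the members, EIF4G2, the 5 genes outside them with the most similar profile and examples of the lists. The scripts were tested on simulated data. Alternatives were DESeq2 1.42.0, library size without TMM, limma 3.58.1 on quantile-normalized log2 of CPM plus 1, no filter, at least 10 counts in every library, all 14 libraries in 1 fit, the replicate number as a block or no culture term, the shNSi moderate pool in place of a control pool or added to it, and each culture left out. The crossed replicate block was chosen after seeing the data. One reading frame and one overlapping gene are not reported here.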

Additional observations from a re-analysis of the deposited data

Results flagged for a closer look

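The difference of 2 host transcripts between heavy polysomes and total mRNA changed between the lines by the interaction test. Of all genes 4.85% were called higher and 8.23% lower by the same test. SNHG15 was higher in shDAP5 heavy translation efficiency by 1.25 on the log2 scale (SE 0.35, edgeR adjusted p = 0.0174). SNHG8 was higher by 1.18 (SE 0.34, adjusted p = 0.0209). Both calls were lost under 10 of 15 alternatives each, and over all 15 the log2 values ran from 0.51 to 1.56 and from 0.39 to 1.51. Groups of 2 cultures were too small to look for single outlying samples.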

How the results depend on the processing

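The 2 cultures per group set the limits. All 10 members kept their lower level in heavy than in light polysomes, and the call, in both lines under every alternative run. Taking the called members and the highest and lowest member of each comparison, of 519 values under the alternatives 439 kept their direction and side of the threshold, 55 lost the call, 11 gained one and 14 turned direction, and the cause of these changes was not tested. Where a culture is left out the lone culture of its group is assumed to vary like the other groups, and the pools within a line were then fitted over all libraries. Without TMM the median of all genes moved from 0.09 to 0.34 in heavy polysome mRNA, where the members' median was 1.07, and from -0.06 to -0.54 in shNSi heavy over light, where it was -2.75.

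With DESeq2 the genes called were 273 in total mRNA (53 in the main analysis), 105 in light polysomes (0) and 1965 in the change of the heavy-over-light ratio (1072). Without TMM they were 18 in total mRNA, 0 in heavy translation efficiency (2012), with 0 members, and 1637 in the heavy-over-light change, 995 of them higher against 245 of 1072. SNHG6 turned to 0.16 in heavy translation efficiency without TMM. Without TMM 893 of 5247 calls were higher in shNSi heavy over total (3384 of 5677 in the main analysis), 3883 of 10769 in shNSi heavy over light (5242 of 10184) and 2960 of 7565 in shDAP5 heavy over light (4041 of 7922). With DESeq2 1071 of 3187 calls were higher in shNSi light over total (440 of 2255). With limma the genes called were 5 in total mRNA (0 higher, against 13 of 53), 408 in heavy translation efficiency (241 higher, against 746 of 2012), with 0 members, 0 in the heavy-over-light change and 3637 in shNSi heavy over total (5677, with 1020 higher). Without a filter they were 577 in total mRNA, 244 in light polysomes and 3 in light translation efficiency. With at least 10 counts in every library 4 members were called higher in heavy translation efficiency, against 8.29% of all genes. With all 14 libraries in 1 fit 3 genes were called in total mRNA, 1 in light polysomes, 1055 in heavy translation efficiency with 0 members and 2777 in the heavy-over-light change, and 3 members were called higher in heavy polysomes, against 7.26% of all genes, with SNHG6 at -0.085.

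With shNSi moderate in place of light, 3940 genes and 10 members were called in light polysomes, 4367 genes and 10 members in light translation efficiency and 3762 genes and 10 members in the heavy-over-light change, where SNHG8 turned to -1.10. With shNSi light and moderate summed, 114 genes were called in light polysomes and 454 genes and 2 members in light translation efficiency. With shNSi moderate in place of heavy, 50 genes and 0 members were called in heavy polysomes, with SNHG6 at -0.050, and 0 genes and 0 members in heavy translation efficiency. With shNSi heavy and moderate summed, 421 genes and 0 members were called in heavy polysomes, 0 genes and 0 members in heavy translation efficiency and 0 genes in the heavy-over-light change.

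The replicate numbers were not taken as pairs, since same-numbered cultures of the 2 lines deviated together with r from -0.27 to 0.06 across genes. Under a replicate block the genes called were 365 in total mRNA, 130 in light polysomes, 1 in light translation efficiency and 688 in heavy translation efficiency, with 0 members in the last. No culture term, and so no replicate block, left 0 genes and 0 members in heavy translation efficiency, 0 genes in the heavy-over-light change, 0 genes in shNSi light over total and 0 genes and 0 members in shNSi heavy over total. With the block crossed between the lines, chosen after seeing the data, 71 genes were called in total mRNA, 4133 genes and 5 members in heavy translation efficiency and 2238 genes in the heavy-over-light change.

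Leaving out 1 culture at a time gave 0 to 386 genes in total mRNA, with SNHG12 at -0.43 to 0.16. It gave 2 to 4678 genes and 0 to 8 members in light polysomes, 2 to 3559 genes and 0 to 5 members in heavy polysomes, with SNHG6 at -0.42 to 0.68. It gave 4 to 4515 genes and 0 to 5 members in heavy translation efficiency, with SNHG6 at -0.36 to 0.22, and 0 to 2030 genes and 0 to 9 members in light translation efficiency, with SNHG6 at -0.20 to 0.64. In the heavy-over-light change it gave 2 to 2929 genes and 0 to 1 members (1 lower without shNSi replicate 1 and 1 higher without shNSi replicate 2), with SNHG5 at -1.24 to 0.37 and SNHG8 at -0.043 to 1.44. Within the lines it gave 524 to 2710 genes and 0 to 4 members in shNSi light over total, with SNHG5 at -1.09 to 0.078, 2066 to 3993 genes in shNSi heavy over total and 3264 to 3308 genes in shDAP5 heavy over light.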

Other observations

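Noncoding RNAs that reside in the nucleus were measured beside the hosts. The nuclear noncoding RNAs MALAT1 and NEAT1 had heavy-over-light log2 ratios of -0.24 (SE 0.31) and -0.19 (SE 0.35) in shNSi, neither called by edgeR, and of -1.88 (SE 0.30, adjusted p = 0.0006) and -1.49 (SE 0.23, adjusted p = 0.0005) in shDAP5, where 24.8% of all genes were called lower. The change of their ratio between the lines had a median of -1.38, with 0 of 2 called against 6.75% of all genes.

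The mRNAs of nonsense-mediated decay factors were mostly higher in heavy than in light polysomes of shNSi. Of 14 genes, 10 were called higher and 2 lower there, where 33.8% of all genes were called higher and 31.9% lower, with a median of 1.50, and UPF1, the helicase of the pathway, had a log2 ratio of 2.74 (SE 0.29). In shDAP5 5 were called higher in heavy than in light polysomes, 1 lower and 8 neither, with a median of 0.47, where 25.9% of all genes were called higher and 24.8% lower. In shDAP5 heavy polysomes 5 of the 14 were called lower and 2 higher against shNSi, where 16.7% of all genes were called lower and 14.2% higher, with a median of -0.60, and in total mRNA 0 were called.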
